A study of Homo sapiens with 6 samples.

Results

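The canonical histone genes supply the linker histone H1 and the core histones H2A, H2B, H3 and H4, and their reads in polyadenylated RNA are described here in cells with and without knockdown of the pseudouridine synthase PUS1. Members were taken by gene symbol, as those of the H1 series and of the H2AC, H2BC, H3C and H4C series or their older HIST names, without symbols of pseudogenes. Of the 60605 genes of the deposited table, 87 had such a symbol, 16 of these were pseudogenes, and 71 were kept, of which 70 code for protein and 1, H1-10-AS1, is an antisense RNA. Of the 71 members, 43 had at least 1 count in a library, 27 were at 0 in every library, and 1 was above 0 but under 1 count throughout. The cells were of the line MDA-MB-231, from a breast cancer without hormone receptors or HER2, and carried a control hairpin (shControl, 3 libraries) or a hairpin against PUS1 (shPUS1, 3 libraries). Both hairpins were delivered by lentivirus with puromycin selection. The deposited headers number this knockdown 2, and the sources used here do not tie that number to one of the hairpins against PUS1. The labels call the libraries biological replicates without saying whether they came from separate selections, and the p-values measure the spread between these libraries.

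Most histone mRNAs are made in S phase, when new DNA is packed into nucleosomes, and they are the main class of mRNA of animal cells that ends without a poly(A) tail. Their 3′ end is instead a short stem-loop bound by SLBP, and the U7 snRNP directs the cut just after it. Selection with oligo(dT), as used for these libraries, therefore recovers such a gene mainly where it also gives a longer, polyadenylated transcript, and the reads measured here are not the whole histone mRNA of the cell. The linker gene H1-10 differs from the clustered genes, since it stands outside the histone clusters and gives ordinary polyadenylated mRNA throughout the cell cycle.

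The stem-loop was searched in the transcripts of GENCODE release 29 (GRCh38), which held 69 of the 71 members. A match was found in 28 members, of which 19 had counts and 5 had enough reads to be tested, and no match in 41, of which 22 had counts and 6 could be tested. An annotated transcript that stops at the coding sequence has no 3′ end to search, so that a missing match says nothing of such a gene. The 41 members without a match also include H1-10, annotated beyond its coding sequence, and the antisense RNA H1-10-AS1. These kinds were not separated. Median counts over the 6 libraries were 2.16 for members with a match and 1 for those without. Sequences are given for the genes whose annotation or reads bear most on the results, with the 16 bases of the stem-loop in capitals.
H2BC5: tcccaaaGGCTCTTTTAAGAGCCacgcatg
H2BC4: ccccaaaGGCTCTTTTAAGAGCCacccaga
H2AC6: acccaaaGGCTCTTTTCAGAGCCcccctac
H2BC21: ctccaaaGGCTCTTTTCAGAGCCacccacc
H4C8: aaccaaaGGCCCTTTTCAGGGCCgcccact

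The form of H2AC6 and H2BC21 was shared by 15 members, that of H2BC5 and H2BC4 by 4 members, and that of H4C8 by 4 members, all of the H4 type. In H2BC5 (plus strand of chr6:26158146-26171349 in the deposited table, whose members overlap their GRCh38 genes) the transcript of 496 bases holds the stem-loop, followed by 39 bases, and the transcript of 789 bases does not hold it. In H2AC6 (plus strand of chr6:26124145-26139116) the stem-loop lies inside transcripts of 1654 and 1668 bases, with 1114 and 1128 bases after it. In H2BC21 (minus strand of chr1:149884459-149886652) 1729 bases follow it. The genes H2AC6, H2BC4, H2BC5, H2BC15 and H2BC18 have transcripts both with and without the stem-loop, and 4 of these 5 had enough reads to be tested.

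Reads of the clustered genes lay mainly in a few members. The 6 genes listed from general knowledge as giving polyadenylated transcripts (H1-2, H2AC6, H2BC4, H2BC5, H2BC12 and H2BC21) held 5793 counts over the 6 libraries, and a group of 62 other coding members, mostly of the clusters, held 976. By type, 4 of 10 H1 genes, 12 of 16 H2A genes, 12 of 17 H2B genes, 5 of 13 H3 genes and 9 of 14 H4 genes had counts. Enough reads for the test remained for 4 H1 genes, 1 H2A gene, 6 H2B genes, 0 H3 genes and 0 H4 genes. The 5 germline members had no counts. A gene at 0 may still lie under the limit of 3 counts, which was 0.157 to 0.204 CPM (counts scaled to a library size of 1e+06) in these libraries, for counting error only.

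**Figure D1:**
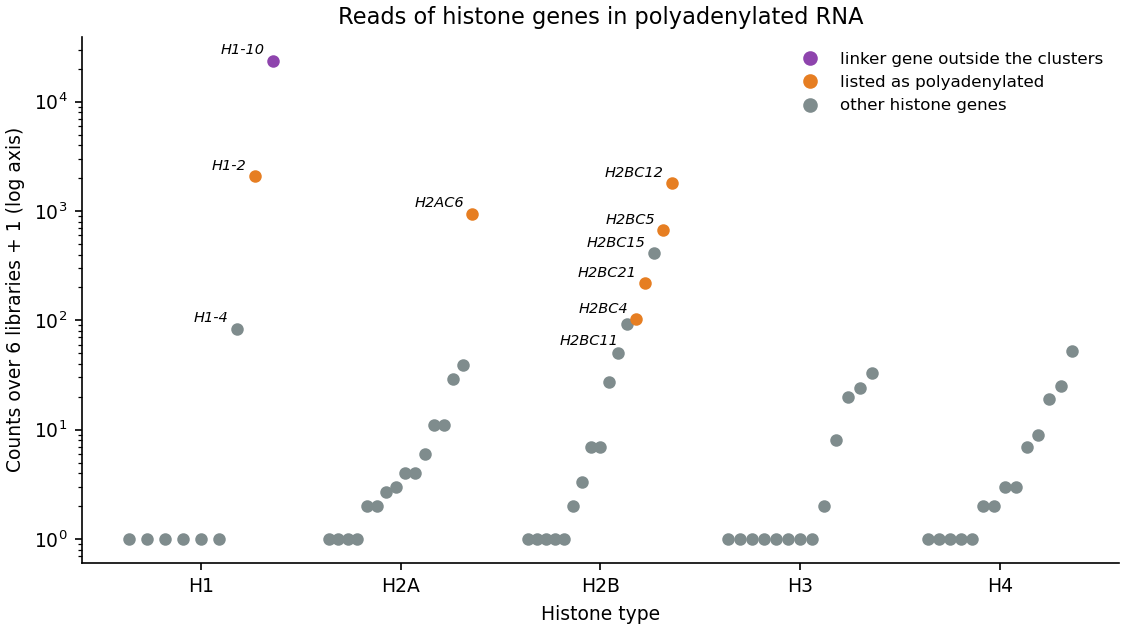
Counts of 69 coding members summed over the 6 libraries, plus 1, on a log axis, with members ordered by counts within each histone type on the horizontal axis and coloured by gene group. Tested members are named, and the H3 and H4 genes have no member above 51 counts.

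Between genes, levels are compared per length, as the mean of the deposited FPKM over the 6 libraries. The order was H1-10 with 156 FPKM, H2BC12 with 34.3, H1-2 with 27.3, H2BC5 with 7.40 and H2AC6 with 5.40, and the other tested members lay between 0.738 and 1.21 FPKM. Of these, H2BC15 is annotated with 5422 exonic bases, which lowers its FPKM against its counts. The shPUS1 means of H2BC12 and H1-2 were 36.4 ± 3.03 and 34.5 ± 2.40 FPKM (SD, n = 3), and their shControl means 32.3 ± 13.6 and 20.03 ± 2.47 FPKM (SD, n = 3), so the order of these neighbours was within their spread in shPUS1 and in shControl. H2BC5 and H2AC6, at 4.92 ± 0.749 and 4.97 ± 2.12 FPKM in shControl, were also within their spread there, but in shPUS1 they had 9.88 ± 1.78 and 5.83 ± 0.386 FPKM (SD, n = 3).

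Of the libraries, totals lay between 14241505 and 19625998 estimated counts. PUS1 was at 14.5, 27.5 and 12.1 CPM in shControl and at 6.57, 5.47 and 5.37 CPM in shPUS1, all below the controls, with a log2 fold change of -1.62 (SE 0.318) and an adjusted p of 0.0462 by edgeR's quasi-likelihood test. An exact two-sided permutation test gave p = 0.1, the smallest that 3 against 3 libraries can give. It was -1.19 on the log2 scale with shControl replicate 2 left out (edgeR adjusted p = 0.00311), while the call was lost without shControl replicate 1 and without each shPUS1 library, with edgeR adjusted p from 0.0906 to 0.253. shControl replicate 2 stood apart, with a correlation of log2 CPM across genes of 0.951 and 0.952 with the other controls, which had 0.981 with each other. Values with it left out are given where it moved a result by over 1.5 times or changed a call. Of the markers listed for MDA-MB-231 and mesenchymal-like breast cancer cells, which include keratins, 6 of 6 passed the filter on low counts. Of luminal markers 3 of 6 passed, of epithelial markers 2 of 3 and of blood and endothelial markers 2 of 5. None of the markers that passed was called by edgeR, with 3, 1, 0 and 0 at an unadjusted p under 0.05, beside 3758 of all 14748 tested genes. With shControl replicate 2 left out, edgeR called 2 markers listed for MDA-MB-231 and mesenchymal-like cells and 1 luminal marker lower. In that fit 8.79% of all tested genes were called lower.

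Among the 11 tested members, H1-2 alone passed the threshold of an adjusted p under 0.05, and it was higher in shPUS1. The background was 1.74% of all 14748 tested genes called higher and 0.841% called lower. No member was called lower by edgeR, with 0 lower at an unadjusted p under 0.05. DESeq2 fitted 43 members and called 3 higher and 0 lower, beside 7.3% and 5.58% of all genes with an adjusted p in that fit. It gave no adjusted p to some members with few counts, among them H2BC4, H1-4 and H2BC11. Limma on FPKM called 1 of 27 members higher and 0 lower, beside 0.809% and 0.413%. Voom with sample weights, an alternative chosen after seeing the data, called 4 of the 11 members higher and 1 lower, beside 11.5% and 9.48%. With no filter on low counts edgeR called 2 of 43 members higher, beside 2.8%. In the main fit of 11 members the log2 fold change was above 0 in 7 and below 0 in 4. The median was 0.23, beside -0.03 over all tested genes. H1-2, H2BC5 and H2BC15 had an unadjusted p under 0.05, as did 3758 of all tested genes. The groups did not overlap in 4 members that were higher in shPUS1 and in 1 that was lower, beside a background of 18.8% and 17.3% of all tested genes. Of members past the threshold, 0 had an absolute log2 fold change of 1 or more. In bulk RNA, fewer cells that express a gene and less of its RNA per cell cannot be told apart.

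**Figure D2:**
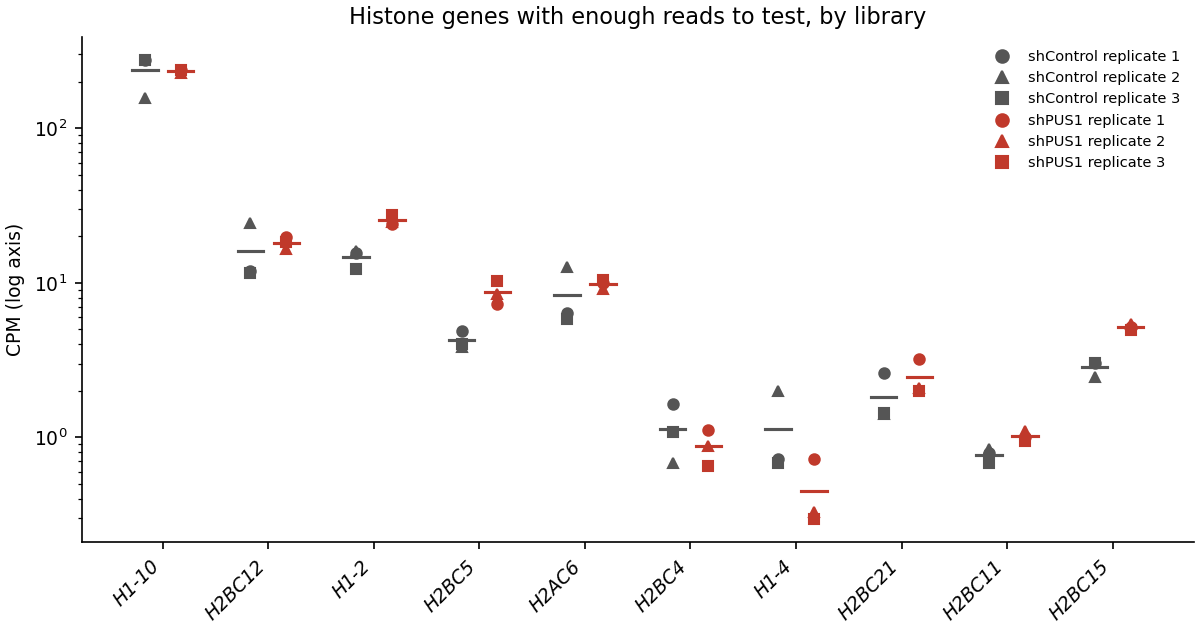
CPM of 10 tested members on a log axis, with 1 point per library, marked by replicate, and a short line at the mean of the 3 libraries of each group. The shPUS1 libraries of H1-2, H2BC5, H2BC11 and H2BC15 lie above all shControl libraries.

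H1-10 is a linker histone, of the type that binds where DNA enters and leaves the nucleosome. H1-10 (minus strand of chr3:129314771-129316286) had 277, 156 and 277 CPM in shControl and 237, 229 and 238 CPM in shPUS1. Its shPUS1 libraries lay between the low shControl replicate 2 and the other controls, and the log2 fold change was -0.02 (SE 0.215, edgeR adjusted p = 0.970). Leaving out shControl replicate 2 gave -0.25 (SE 0.084, edgeR adjusted p = 0.0711). H1-10 overlaps H1-10-AS1 on the other strand, which had 3.16 to 14.2 counts per library. Since the strand setting of the counting is not given in the sources used here, reads of the overlap cannot be told apart.

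H1-2 is a somatic linker histone gene of the large cluster on chromosome 6, and it was the member with the firmest difference. It lies on the minus strand of chr6:26055740-26056470 and shares no stretch of 100 bases with transcripts of other genes. It had 15.6, 15.9 and 12.2 CPM in shControl and 24.1, 24.9 and 27.5 CPM in shPUS1. Every shPUS1 library was above every control. The log2 fold change was 0.80 (SE 0.162), with an adjusted p of 0.0484 by edgeR, close to the threshold, and of 0.00566 without shControl replicate 2. The call was lost when any other library was left out, with edgeR adjusted p from 0.0590 to 0.253, and with library totals in place of TMM, with an edgeR adjusted p of 0.0501.

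H1-4, another linker gene of the same cluster, had 0.720, 1.99 and 0.681 CPM in shControl and 0.723, 0.328 and 0.295 CPM in shPUS1. The groups overlapped, and shControl replicate 2 was the highest library. Its log2 fold change was -1.16 (SE 0.516) with all libraries, with an edgeR adjusted p of 0.207, and -0.53 (SE 0.447) without that library. Summed over the 8 H1 genes of the listed and other coding members, levels were 16.3, 17.9 and 12.9 CPM in shControl and 24.8, 25.2 and 27.7 CPM in shPUS1, nearly all of it H1-2.

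H2AC6 codes for a core histone H2A and was the single H2A gene with enough reads to be tested. It had 6.35, 12.7 and 5.86 CPM in shControl and 9.91, 9.08 and 10.5 CPM in shPUS1. The shPUS1 libraries were above 2 controls and below shControl replicate 2, and the log2 fold change of 0.23 (SE 0.306) did not pass the test (edgeR, adjusted p = 0.663). Without that library it was 0.67 (SE 0.150), with an edgeR adjusted p of 0.0196. The 59 untested genes outside the listed ones included H2AC20, with 3, 14 and 6 counts in shControl and 0, 3 and 2 counts in shPUS1, which were highest in the same library.

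H2B, the partner of H2A in the nucleosome, supplied most of the tested members. H2BC12 (minus strand of chr6:27146361-27146855) had 11.98, 24.4 and 11.7 CPM in shControl and 19.8, 16.5 and 18.2 CPM in shPUS1. As in H2AC6, the shPUS1 libraries were above 2 controls and below shControl replicate 2. The log2 fold change was 0.18 (SE 0.294, edgeR adjusted p = 0.729), and 0.61 (SE 0.128, edgeR adjusted p = 0.0150) without that library. H2BC12 shares 28.4% of its stretches of 100 bases with H2BS1, a related gene that had 1 count in a single library.

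H2BC5 had the largest positive log2 fold change of the tested members. It had 4.91, 3.83 and 4.02 CPM in shControl and 7.23, 8.48 and 10.3 CPM in shPUS1. Every shPUS1 library was above every control, and shControl replicate 2 was not set apart from the other controls. The log2 fold change was 1.01 (SE 0.223), with an adjusted p of 0.0569 by edgeR, which missed the threshold. It was 0.0181 by edgeR without shControl replicate 2 and 0.00467 by DESeq2. With any other library left out the edgeR adjusted p was 0.0759 to 0.263, and with the replicate block 0.149. Of the alternative settings, H2BC5 passed in 4 and did not pass in 12. An antisense transcript overlaps the span of H2BC5 and had 1, 7 and 4 counts in shControl and 10.7, 11 and 12 counts in shPUS1. In GENCODE release 29, H2BC5 shares no stretch of 100 bases with transcripts of other genes, read on either strand. The part of the antisense transcript in the reads of H2BC5 was not tested.

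H2BC15 had 3.01, 2.46 and 3.02 CPM in shControl and 5.18, 5.42 and 4.96 CPM in shPUS1. The groups stood apart, with a log2 fold change of 0.85 (SE 0.218) and an edgeR adjusted p of 0.0729, or 0.0275 without shControl replicate 2. H2BC11 had 0.785, 0.839 and 0.681 CPM in shControl and 1.00, 1.09 and 0.944 CPM in shPUS1. Its groups did not overlap either, and the log2 fold change was 0.35 (SE 0.302, edgeR adjusted p = 0.489).

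In H2BC21 and H2BC4 the groups overlapped. H2BC21 had 2.62, 1.42 and 1.43 CPM in shControl and 3.23, 2.08 and 2.01 CPM in shPUS1, with a log2 fold change of 0.40 (SE 0.353, edgeR adjusted p = 0.494), or 0.25 (SE 0.345) with shControl replicate 2 left out. H2BC4 had 1.64, 0.682 and 1.09 CPM in shControl and 1.11, 0.876 and 0.649 CPM in shPUS1, with a log2 fold change of -0.32 (SE 0.398, edgeR adjusted p = 0.640), or -0.58 (SE 0.363) with that library left out. The members listed as polyadenylated thus did not all lie on the same side of 0.

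Without shControl replicate 2 the test was made on 12 members, of which 5 were called higher (H1-2, H2AC6, H2BC5, H2BC12 and H2BC15) and 0 lower by edgeR. That fit called far more genes in all, with 9.8% of 15130 tested genes higher and 8.79% lower. The median log2 fold change of the members was 0.51 in that fit.

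**Figure D3:**
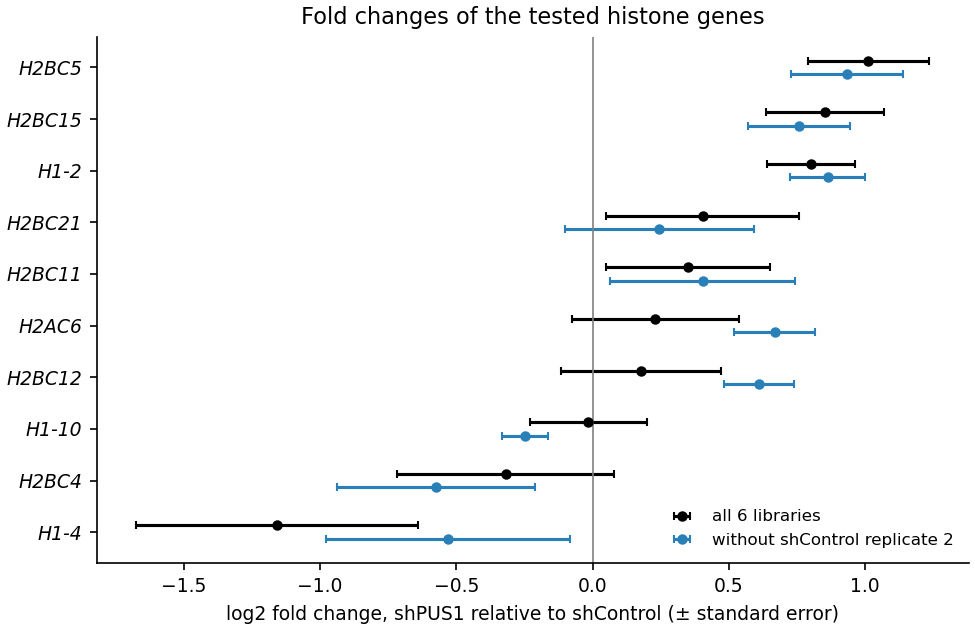
Log2 fold change of shPUS1 relative to shControl for 10 tested members, with bars of 1 standard error from the edgeR fit, for all 6 libraries (black) and without shControl replicate 2 (blue). H2AC6 and H2BC12 move from 0.23 and 0.18 to 0.67 and 0.61, while H2BC5, H2BC15 and H1-2 lie between 0.76 and 1.01 in both fits.

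The remaining members with counts were too low to test, with at most 52 counts over the 6 libraries. Of these 32 members, 14 were highest in shControl replicate 2, compared with 3 of the 11 tested members. The share of all genes highest in that library is not given here. Counts of genes highest in that library, here and in the gene lists below, therefore have no background to be read against. Among H4 genes, which code for the most conserved core histone, H4C12 had 0, 9 and 2 counts in shControl and 5, 5 and 3 in shPUS1. H4C8, named after its values were seen as the untested coding member with the most counts, had 7, 10 and 8 counts in shControl and 8, 10 and 8 in shPUS1. In both, the groups overlapped. Among H3 genes, H3C3 had 5, 15 and 2 counts in shControl and 0, 0 and 1 in shPUS1, with all shPUS1 libraries below the controls and most reads in shControl replicate 2. H2BC17 had 7, 3 and 1 counts in shControl and 5, 8 and 2 in shPUS1, again with overlapping groups. Differences in single genes of this kind were not tested with the filter on low counts.

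A sum over the genes does not depend on how reads shared among them were divided, although it is lowered if such reads were dropped, which the sources used here do not say. Summed over the 6 listed and 62 other coding members, levels were 51.4, 72.1 and 42.99 CPM in shControl and 74.5, 71.7 and 78.4 CPM in shPUS1. The groups overlapped through shControl replicate 2, with a log2 ratio of group means of 0.43, and of 0.67 without that library. The 6 genes listed as polyadenylated summed to 43.1, 59.0 and 36.3 CPM in shControl and to 65.3, 61.95 and 69.1 CPM in shPUS1, so that every shPUS1 library was above every control. Their log2 ratio was 0.51, and 0.72 without shControl replicate 2. The list was chosen with earlier results of these data known, so its direction is a description only. The 62 other coding members summed to 8.31, 13.1 and 6.75 CPM in shControl and to 9.20, 9.80 and 9.27 CPM in shPUS1. Here the groups overlapped, and the log2 ratio was 0.01 with all libraries and 0.32 without shControl replicate 2. For the 59 of these that were not tested it was -0.74 with all libraries and -0.15 without that library, which held 7.76 CPM of them against 3.80 and 2.36 in the other controls.

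By type, the H2B genes summed to 26.0, 35.1 and 22.4 CPM in shControl and to 38.3, 35.4 and 37.7 CPM in shPUS1, without overlap, with a log2 ratio of 0.41, or 0.62 with shControl replicate 2 left out. The H2A genes summed to 7.72, 15.1 and 6.52 CPM in shControl and to 10.2, 9.58 and 11.3 CPM in shPUS1, with shControl replicate 2 the highest library and a log2 ratio of 0.08, or 0.54 without it. The H3 genes summed to 0.589, 1.89 and 0.409 CPM in shControl and to 0.390, 0.712 and 0.649 CPM in shPUS1. The H4 genes summed to 0.785, 2.10 and 0.818 CPM in shControl and to 0.890, 0.876 and 1.00 CPM in shPUS1. In both of the last types shControl replicate 2 was the highest of all libraries and the groups overlapped. The log2 ratio was -0.72 for H3 and -0.42 for H4 with all libraries, and 0.23 and 0.20 without that library, from 82 and 113 counts over all libraries.

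**Figure D4:**
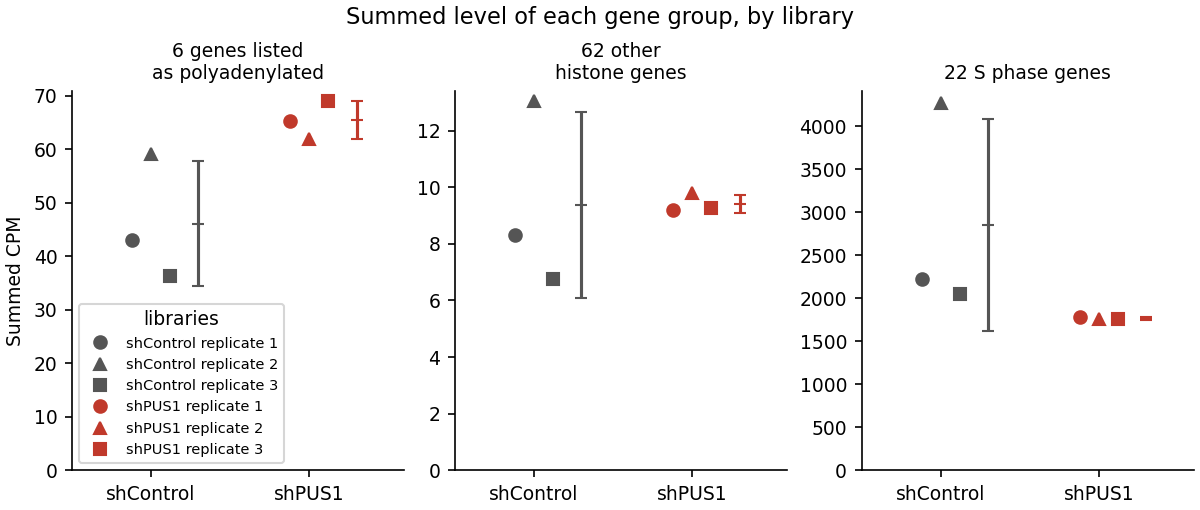
Summed CPM of the 6 genes listed as polyadenylated, of the 62 other coding members and of 22 S phase genes, each panel with its own axis from 0, with 1 point per library and bars of 1 SD around the mean of each group beside the points. shControl replicate 2 is the highest library for the other members (13.1 CPM) and the S phase genes (4277 CPM).

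The genes of S phase, which make and copy DNA when canonical histones are needed, were highest in the same library. The 22 genes of the list summed to 2230, 4277 and 2051 CPM in shControl and to 1782, 1759 and 1754 CPM in shPUS1, and 20 of the 22 were highest in shControl replicate 2. Their median log2 fold change was -0.78 with all libraries and -0.29 without that library. By edgeR 0 were called higher and 1 lower, with 0 higher and 14 lower at an unadjusted p under 0.05, and 2 higher and 8 lower with that library left out. DESeq2 called 0 higher and 8 lower, limma on FPKM 0 and 1, and voom 1 and 9. Over all genes edgeR called 9.8% higher and 8.79% lower with that library left out. With all libraries 3758 of 14748 tested genes had an unadjusted p under 0.05. These shares, and those given above for the other fits, also stand beside the calls of the lists below. The S phase gene called with all libraries was CCNA2, the cyclin of S phase and early mitosis, with a log2 fold change of -1.14 (SE 0.170, edgeR adjusted p = 0.0318). This call was lost without shControl replicate 1 and without each of the shPUS1 libraries, with edgeR adjusted p from 0.0845 to 0.222. The part of S phase in the histone values was not tested.

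None of the 22 genes for transcription, 3′ end processing and decay of histone mRNA was called by edgeR in either direction, with 2 higher and 2 lower at an unadjusted p under 0.05, and their median was -0.05. DESeq2 called 1 higher and 2 lower, limma on FPKM 0, and voom with sample weights 4 higher and 2 lower, while edgeR with shControl replicate 2 left out called 3 higher and 1 lower. SLBP, which binds the stem-loop, had a log2 fold change of -0.38 (SE 0.190, edgeR adjusted p = 0.252), or -0.16 with that library left out, and its groups overlapped. NPAT, the coactivator of histone gene transcription, had 0.33 with an edgeR adjusted p of 0.242.

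Replacement variants are histones that are also made outside S phase, mostly from polyadenylated mRNA. None of the 10 variants tested by edgeR was called, with 0 higher and 2 lower at an unadjusted p under 0.05. DESeq2 called 1 of 12 lower, voom 1 of 10 lower and limma on FPKM 0 of 9. The median log2 fold change by edgeR was -0.36, or -0.10 without shControl replicate 2, where edgeR called 1 lower. H3-3B, a gene for the H3.3 variant, had -0.62 (SE 0.186, edgeR adjusted p = 0.101), and was lower in all shPUS1 libraries. It was called lower with shControl replicate 2 left out (-0.40, edgeR adjusted p = 0.0324), by DESeq2 (adjusted p = 0.0362) and by voom (limma, adjusted p = 0.0125). H2AZ1 and H2AX, for the variants of promoters and of DNA damage marking, had -0.34 and -0.64 with edgeR adjusted p of 0.388 and 0.357, and -0.06 and 0.09 with shControl replicate 2 left out. Of 14 histone chaperones, 0 were called by edgeR, with 2 higher and 7 lower at an unadjusted p under 0.05, and the median was -0.38. Of these 14, 12 were highest in shControl replicate 2, and with it left out the median was -0.22 and 2 were called lower. DESeq2 called 2 of these lower, limma on FPKM 0, and voom 1 higher and 4 lower.

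Carry-over of RNA without a tail was followed with a list of small structural RNAs, of which 14 of 24 had counts. They summed to 55.6, 20.3 and 34.6 CPM in shControl and to 12.99, 18.5 and 5.15 CPM in shPUS1, all below the controls. Of the 3 genes tested by edgeR 0 were called, with 3 lower at an unadjusted p under 0.05. With shControl replicate 2 left out edgeR called 3 lower, and voom called 3 of 3 lower. DESeq2 fitted 14 genes and called 2 lower, and limma on FPKM fitted 13 and called 0. The median log2 fold change of the 3 genes tested by edgeR was -1.61. The part of carry-over in the counts of the histone members was not tested.

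The promoters of members were read from RefSeq (GRCh38.p14), from 250 bases before to 50 after the start, and 64 of the 70 coding members had one. The octamer ATTTGCAT, searched on both strands, was in 14 of 17 H2B windows (82.4%) and 11 of 15 H2A windows (73.3%), beside 1.8% of all 27305 windows, and in 0 H4 windows. The box AAACACA was in 7 of 9 H1 windows (77.8%), beside 5.76% of all windows. It is shown for both tested H1 genes of the cluster, and the octamer for 3 tested H2B genes, with the motif in capitals, read along the strand of the gene.
H1-2, minus strand of chr6:26056572-26056600: tgaggtggaacAAACACAacttgggagca
H1-4, plus strand of chr6:26156201-26156229: tgaggtgtaacAAACACAactcgggatcc
H2BC12, minus strand of chr6:27146886-27146915: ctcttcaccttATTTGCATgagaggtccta
H2BC21, minus strand of chr1:149886710-149886739: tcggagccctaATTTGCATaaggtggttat
H2BC4, minus strand of chr6:26124031-26124060: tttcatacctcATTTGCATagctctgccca

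The octamer of H2BC4 is the same one that lies before H2AC6 on the other strand, and that of H2BC21 is the one before H2AC20. The windows of H2BC5 and H2BC15 hold no exact octamer. The box lies at nearly the same place in H1-2 and H1-4, -119 and -117 bases from the start. H1-2 also holds the box in the other orientation, at -242 bases. CCAAT was in every H2A, H2B and H3 window that was matched and in 35.7% of all windows. These matches are descriptions of letters and not of binding.

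Sequence shared with other genes, as near-identical copies or by overlap on the chromosome, could split reads in part of the genes. Of all members, 15 shared 50% or more of their stretches of 100 bases with transcripts of other genes, and none of these had more than 24 counts in all. By contrast, 44 members shared no stretch, among them H1-2, H2AC6 and H2BC5, and 23 of these had no count. Among tested members the shared part was 28.4% in H2BC12, 10.7% in H1-10, 5.46% in H2BC15, 2.63% in H2BC21 and 0 in the rest. The part of sharing in these values was not tested.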

How the data were processed

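Poly(A) RNA was selected with oligo(dT) and sequenced as paired reads of 150 bases. The authors aligned reads with HISAT2 and counted them with HTSeq 0.6.1. Genome build, annotation, strand setting and treatment of reads with several matches are not given in the sources used here. The deposited estimated counts per gene are not normalized, and 29.8 to 31.8% of those above 0 were not whole. The deposited FPKM equal these counts per kilobase and scaled library total within 0.005. No library was pooled, and 0 columns of per-sample values were left out. No label gives a batch.

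After rounding, filterByExpr and TMM scaling, edgeR 4.0.16 (R 4.3.3) gave quasi-likelihood tests with a prior count of 2 and Benjamini-Hochberg adjustment over 14748 genes. CPM are counts scaled to a TMM library size of 1e+06. Genes kept by the filter held 99.85 to 99.89% of counts, and the biological coefficient of variation was 0.22. The test was checked on simulated counts. Alternatives used DESeq2 1.42.0, limma 3.58.1, other scalings and filters, a replicate block, and each library left out. Python 3.11.15, numpy 2.4.6, pandas 2.3.3, scipy 1.17.1 and matplotlib 3.10.9 were used.

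Members and lists were chosen with earlier results of these data known. The rule for naming took PUS1, members past the threshold, the 15 with the highest mean FPKM, the 6 largest changes in each direction among tested members, H1-10, the 6 listed genes, list genes past the threshold, and SLBP, NPAT, H2AZ1, H3-3B and H2AX. The antisense transcript, H2BS1, H2BC18 and H4C8 were named after their values were seen. The values of 1 member are not reported here, though it stays in counts and medians over members. Coordinates are those of the table. All 69 members in GENCODE release 29 overlap their gene there, 27 with the same start and end.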

Additional observations from a re-analysis of the deposited data

How the results depend on the processing

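The number of members called higher was 1 with all libraries and 0 with library totals without TMM, with the replicate block and with limma on log2(FPKM + 1) without an FPKM filter, where 1.11, 0.122 and 0.111% of all genes were called higher. It was 2 of 43 with no filter on low counts and 3 with DESeq2, which fitted 43. It was 4 with voom and sample weights, which was chosen after seeing the data and called 1 lower. Leaving out each library in turn gave 0 to 5. The median log2 fold change of 0.23 was -0.21 over 43 members with no filter, or -0.14 over the 30 with more than 3 counts in a group when groups at 0 are set to 3 counts over the group. It was -0.35 with DESeq2 over 43 members, -0.02 with limma on log2(FPKM + 1), with and without the FPKM filter, 0.01 with limma on log2(FPKM + 0.1), 0.41 with voom, and 0.15 to 0.51 with a library left out, the highest without shControl replicate 2. These medians take in members with few counts. PUS1 had -1.53 with the replicate block, -1.001 with limma on log2(FPKM + 1), with and without the filter, -1.48 on log2(FPKM + 0.1) and -1.84 to -1.19 with a library left out. Its adjusted p was over 0.05 in the limma and block fits, with shControl replicate 1 left out and with each shPUS1 library left out. The log2 ratio of the summed level, -0.13 over all 71 members, was 0.43 over the 6 listed and 62 other coding members and 0.48 over members with a stem-loop match. Of the 2555 counts of members with a match, 947 were of H2AC6 and 667 of H2BC5, which also have transcripts without the stem-loop. H1-10 turned to 0.031 with the replicate block, 0.01 with limma in each of the 3 forms, and ran from -0.25 to 0.11 with a library left out. With a library left out H2BC4 ran from -0.58 to 0.002, the highest without shControl replicate 1, H2BC12 from -0.013 without shControl replicate 3 to 0.61 without shControl replicate 2, and H2AX from -0.95 to 0.085, the highest without shControl replicate 2. H2AX had 0.007 with voom. The cause was not tested. Same-numbered libraries deviated together with correlations of -0.05, -0.03 and -0.19, so the numbers did not pair them, and the replicate block took the calls of H1-2, PUS1 and CCNA2 (edgeR adjusted p = 0.145, 0.0969 and 0.0804). The result is limited to the 11 members with enough reads, and counts say nothing of histone mRNA without a tail.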
